A study of Mus musculus with 12 samples.

Results

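The 9 genes described here code for the enzymes and carriers of the urea cycle and for the liver glutaminase that feeds it. They were taken by gene name and are Nags, Cps1, Otc, Ass1, Asl, Arg1, Slc25a15, Slc25a13 and Gls2, or 9 of the 54532 genes counted. RNA sequencing was performed on whole liver of male PPARγ flox/flox mice kept on a fast-food diet (FFD), rich in saturated fat, cholesterol and sucrose and given with sugared water. At 8 weeks of age the PPARγ-KO mice had received the AAV8 virus AAV8.TBG.PI.Cre.rBG, whose thyroxine-binding globulin (TBG) promoter drives Cre recombinase in hepatocytes alone, so that other liver cells keep the gene. Littermates called WT carried the same floxed allele and received AAV8.TBG.PI.eGFP.WPRE.bGH, the same virus type with a fluorescent protein in place of Cre. Livers were taken after 2 or 5 months of FFD, with 3 libraries in each of the 4 groups, WT and PPARγ-KO at either time.

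The urea cycle converts ammonia, which is toxic to the brain, into urea for excretion, and the liver is the organ that runs it in full. Its first steps lie in the mitochondrion and its later steps in the cytosol, so it needs carriers that move ornithine, citrulline and aspartate across the inner membrane. Hepatocytes around the portal vein carry most of the cycle, while those around the central vein take up what ammonia is left by making glutamine with glutamine synthetase (Glul).

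Libraries held 16367775 to 27452284 counts, and the 9 genes together took 0.401% to 0.780% of them. Levels are given as normalized CPM, counts scaled to a common library total (CPM) after adjustment by TMM, the trimmed mean of M-values, which lets libraries of unlike make-up be compared. All 9 genes passed the filter on low counts in every comparison. WT replicate 1 at 2 months stood apart from its group, with a chi-square per gene of 31.7 and 27.6 against the other replicates, which differed from each other by 10.3 (near 1 where counting alone sets libraries apart). At 5 months WT replicate 1 differed from the others by 13.1 and 14.6, and those from each other by 2.44. Libraries labelled KO differed from each other by 13.96, 14.51 and 17.46 at 2 months and by 16.23, 11.9 and 9.397 at 5 months. The distances of WT replicate 1 at 5 months thus lay within the range of those pairs, and only 2.44 lay below it. In each WT group replicate 1 had the highest CPM of the group for all 9 genes. Results are given with and without these 2 libraries where they change a call. As each is the highest of its group for all 9 genes, leaving it out lowers the WT mean. The direction in which the differences then move was thus fixed in advance. Whether replicates were separate mice is not in the labels, and p-values measure the spread between these libraries.

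Pparg, the gene deleted, went against the labels. At 2 months its CPM was 38.8, 41.4 and 37.7 in WT and 50.5, 66.5 and 52.1 in those labelled KO, or 0.52 ± 0.107 as log2 fold change with the SE of the edgeR fit (adjusted p = 0.0309). At 5 months it was 36.9, 41.4 and 37.1 in WT and 86.6, 93.0 and 75.1 in those labelled KO (1.15 ± 0.0841, edgeR adjusted p = 2.57e-06). The gene was thus higher where it should have been deleted. Counts were summed over the whole gene, so transcripts with and without the deleted exons could not be separated. Groups are called by their labels below, and every direction given for the libraries labelled KO rests on those labels. As tissue, the libraries were liver: 9 matched hepatocyte markers, albumin and other plasma proteins among them, summed to 58850 to 93040 CPM.

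Per kilobase of exon, Ass1, Arg1 and Cps1 stood well above the other genes. In WT at 2 months the mean level per kb was 464 ± 152 CPM for Ass1, 348 ± 41.7 for Arg1 and 306 ± 133 for Cps1 (SD, n = 3), and the ranges of these neighbours overlapped. Otc followed at 74.5 ± 10.0, Slc25a13 at 63.9 ± 3.23, Gls2 at 59.4 ± 19.6 and Asl at 57.4 ± 11.5 CPM per kb, again with overlapping neighbours. Slc25a15 at 42.6 ± 3.35 lay below Asl without overlap, though its range met that of Gls2, and Nags at 18.7 ± 2.05 lay below Slc25a15 without overlap. Ass1 led and Nags came last in all 4 groups. The middle of the order moved: Slc25a13 ranked 5 in WT at 2 months and 8 in WT at 5 months, where its 43.4 ± 4.77 CPM per kb lay below the 55.1 ± 6.73 of Slc25a15 in 3 of 3 libraries. The lengths are those of all exons of all annotated transcripts joined, 8 transcripts for Asl and 11 for Gls2, and a longer joined length lowers the level per kb.

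**Figure D1:**
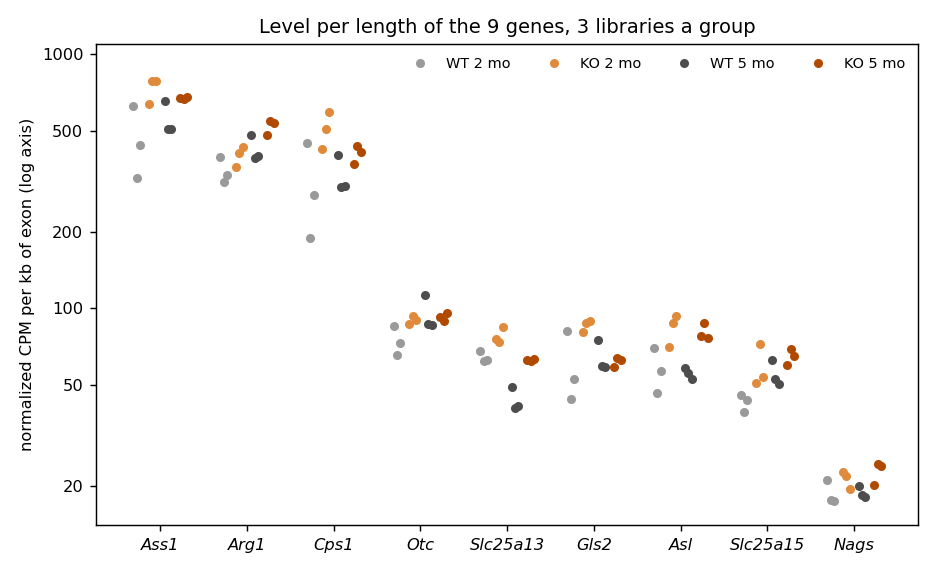
Level of the 9 genes in normalized CPM per kb of exon (log axis), with each point 1 library and 3 libraries in each of the 4 groups, ordered by the mean in WT at 2 months. Ass1, Arg1 and Cps1 lie well above the rest in every library, and Nags, with group means of 18.7 to 22.8 CPM per kb, lies lowest.

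The genes, all protein-coding, lie on 8 chromosomes (mm10). The 5 enzymes of the cycle are Cps1 at chr1:67123026-67231259 (plus strand, 38 exon blocks), Otc at chrX:10252305-10321024 (plus, 11), Ass1 at chr2:31470207-31520672 (plus, 16), Asl at chr5:130011258-130029247 (minus, 19) and Arg1 at chr10:24915221-24927484 (minus, 7). Nags lies at chr11:102145513-102149477 (plus, 4) and Gls2 at chr10:128194457-128210004 (plus, 19). The carriers are Slc25a15 at chr8:22375551-22398597 (minus, 6) and Slc25a13 at chr6:6041218-6217173 (minus, 20).

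Upstream sequence from RefSeq (GRCm38.p6) was at hand for Ass1, Nags, Otc, Slc25a13 and Slc25a15, and not for Cps1, Asl, Arg1 and Gls2. The 250 bases before the start site are shown for Slc25a13 and Nags, both higher in the libraries labelled KO at 5 months, for Ass1, which holds the same motif as Slc25a13, and for Otc, whose means were nearly equal at 5 months. They are Slc25a13 at chr6:6217174-6217423 (minus strand), Nags at chr11:102145263-102145512, Ass1 at chr2:31470020-31470269 and Otc at chrX:10252055-10252304 (plus strand). Capitals mark the motif matches named after them.
Slc25a13: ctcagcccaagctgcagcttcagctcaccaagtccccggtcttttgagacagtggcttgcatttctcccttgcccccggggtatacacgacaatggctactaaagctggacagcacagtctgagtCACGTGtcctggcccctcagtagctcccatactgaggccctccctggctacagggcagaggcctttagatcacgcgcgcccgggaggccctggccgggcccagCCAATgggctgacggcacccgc
Nags: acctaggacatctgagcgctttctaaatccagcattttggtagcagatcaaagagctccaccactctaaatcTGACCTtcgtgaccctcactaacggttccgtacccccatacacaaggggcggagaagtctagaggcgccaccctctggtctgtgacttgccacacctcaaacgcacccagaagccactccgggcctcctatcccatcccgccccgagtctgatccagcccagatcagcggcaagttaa
Ass1: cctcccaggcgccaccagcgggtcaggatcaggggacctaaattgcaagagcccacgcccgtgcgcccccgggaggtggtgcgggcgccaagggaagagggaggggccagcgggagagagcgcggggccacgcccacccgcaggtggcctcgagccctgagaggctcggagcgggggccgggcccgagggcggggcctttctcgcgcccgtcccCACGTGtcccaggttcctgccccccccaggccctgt
Otc: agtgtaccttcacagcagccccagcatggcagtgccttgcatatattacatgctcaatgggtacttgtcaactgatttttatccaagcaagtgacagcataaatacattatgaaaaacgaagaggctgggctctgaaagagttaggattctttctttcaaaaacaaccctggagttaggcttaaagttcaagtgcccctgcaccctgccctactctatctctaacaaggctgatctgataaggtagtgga
The E-box CACGTG, searched on both strands like the other motifs, began 125 bases before the start site in Slc25a13, 36 before it in Ass1 and 77 before the second start site of Slc25a15, and 7.15% of the 32851 mouse windows hold it. Slc25a13 also held CCAAT, found in 37.4% of windows. Nags held the nuclear receptor half-site AGGTCA on the reverse strand, 178 bases before the start, as do 16.3% of windows. No match was found in these windows for the direct repeat of AGGTCA with 1 base between, to which PPARs bind, nor for CAAAGTCCA, TTGCNNAA, TGACGTCA, TGTTCT, the glucocorticoid response palindrome or TATAAA, which 0.0396%, 0.475%, 10.8%, 1.79%, 19.0%, 0.00913% and 13.6% of windows hold in that order. These are letters in a window and were not tested as sites.

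The comparison at 2 months addresses the deletion early in FFD feeding. In the libraries labelled KO all 9 genes had a higher mean and their median difference was 0.47 on the log2 scale (-0.01 over the 14573 genes tested), but edgeR called 0 of 9, against 3.56% of all genes called. At an unadjusted p below 0.05 edgeR had 5 of 9, and DESeq2 called 4 of 9 (Asl, Slc25a15, Slc25a13 and Gls2). An unadjusted edgeR p of 0.05045 ranked 2764 among the 14573 genes, so many genes reach that level. For DESeq2 and for fits without a library the share of all genes called is not given here. The largest differences in mean belonged to Cps1 (log2 fold change 0.73 ± 0.335, SE), Ass1 (0.67 ± 0.233), Asl (0.54 ± 0.158) and Gls2 (0.53 ± 0.224), and none passed the threshold with edgeR. In 5 of the 9, Otc, Ass1, Asl, Slc25a15 and Slc25a13, every library labelled KO lay above every WT library, as did those of 12.1% of all genes tested. Without WT replicate 1, edgeR called 6 of 9 higher, namely Otc, Ass1, Asl, Arg1, Slc25a13 and Gls2, while leaving out any other library left 0 called. That library was the highest in WT for all 9 genes. The larger differences without it were fixed in advance, and the count is a description only. In whole liver, fewer cells of a type and less RNA per cell cannot be told apart.

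At 5 months 4 of the 9 genes were higher in the libraries labelled KO and 0 lower, against 8.90% of all genes called higher and 9.51% lower. They were Asl (log2 fold change 0.55 ± 0.0732, edgeR adjusted p = 2.46e-04), Slc25a13 (0.54 ± 0.0756, 3.62e-04), Nags (0.29 ± 0.0801, 0.0244) and Arg1 (0.31 ± 0.0914, 0.0337). Cps1 (0.29 ± 0.112), Ass1 (0.29 ± 0.0971) and Slc25a15 (0.24 ± 0.0881) did not pass, with edgeR adjusted p of 0.0992, 0.0591 and 0.0811. Otc (-0.03 ± 0.0963) and Gls2 (-0.05 ± 0.0904) had nearly equal means. The median of the 9 was 0.29 (-0.01 over the 14138 genes tested), and the groups did not overlap for Asl, Slc25a13, Nags and Ass1, all higher, as for 15.9% of all genes. Without WT replicate 1 edgeR called 7 of 9 higher, Cps1, Ass1 and Slc25a15 being added. Here too that library was the highest in WT for all 9 genes, so the direction was fixed in advance. Without WT replicate 2 or 3, or replicate 2 or 3 of those labelled KO, only Asl and Slc25a13 remained. DESeq2 called 6 of 9, and the shares given over all genes are those of the main edgeR fit alone.

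**Figure D2:**
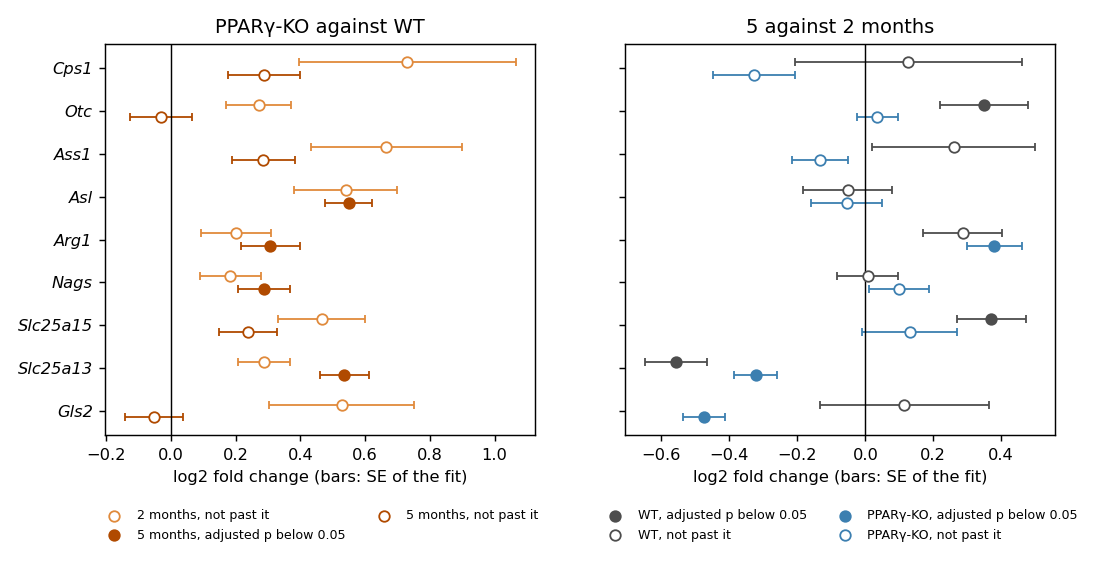
Log2 fold change (points) and standard error of the edgeR fit (bars) of the 9 genes, for libraries labelled PPARγ-KO against WT at 2 and 5 months (left) and for 5 against 2 months within each genotype (right), with filled points where the adjusted p was below 0.05. All 9 points at 2 months lie above 0 and are open, while Asl, Arg1, Nags and Slc25a13 are filled at 5 months.

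Over time, 3 of the 9 genes changed in WT and 3 in the libraries labelled KO. In WT Slc25a13 fell by 0.56 ± 0.0912 on the log2 scale from 2 to 5 months (edgeR adjusted p = 6.25e-04), and Slc25a15 (0.37 ± 0.102, 0.0122) and Otc (0.35 ± 0.129, 0.0474) rose. In the libraries labelled KO Gls2 fell by 0.48 ± 0.0623 (edgeR adjusted p = 1.21e-04), Slc25a13 fell by 0.32 ± 0.0636 (0.00181) and Arg1 rose by 0.38 ± 0.0801 (0.00276). Of all genes, 46.4% were called over time in WT (23.8% higher and 22.7% lower) and 44.9% in the libraries labelled KO (22.7% higher and 22.2% lower). The count in WT rested on single libraries, with 6 of 9 called without WT replicate 1 at 2 months and 1 of 9 without WT replicate 2 at 2 months, and in the libraries labelled KO it was 5 of 9 without their replicate 1 at 2 months. The median of the 9 was 0.13 in WT and -0.06 in those labelled KO, both beside -0.01 over all genes tested. Mice at 5 months were older, and gene names stored as spreadsheet dates carried the year 2022 in all tables at 2 months and 2023 in all at 5 months, so diet, age and any batch cannot be told apart. Cell type markers moved over time as well. In WT 10 of 10 macrophage markers rose (median 1.32), 6 of 9 hepatocyte markers rose and 0 fell, and 1 of 8 endothelial markers rose and 5 fell. In the libraries labelled KO 4 of 10 macrophage markers rose and 1 fell, 5 of 9 hepatocyte markers rose and 1 fell, and 1 of 8 endothelial markers rose and 6 fell. Their part in the changes of the 9 genes was not tested. The comparisons of genotype and of time use the same libraries and are not independent of each other.

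Whether the difference between genotypes itself differed between times was tested on all 12 libraries. edgeR called 0 of 9, with 0 at an unadjusted p below 0.05, and DESeq2 called 0, while 1.57% of all genes were called by edgeR. The change in the difference from 2 to 5 months was -0.59 ± 0.273 on the log2 scale for Gls2, -0.45 ± 0.394 for Cps1 and -0.31 for Otc, and 0.24 ± 0.114 for Slc25a13. For Asl it was near 0, with an SE of 0.185. Without WT replicate 1 at 2 months Gls2 alone passed (-0.88, edgeR adjusted p = 0.00347, range over the 18 alternatives 0.00347 to 0.571). Leaving out that library, the highest in WT at 2 months for Gls2, moves this value downward by construction.

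**Figure D3:**
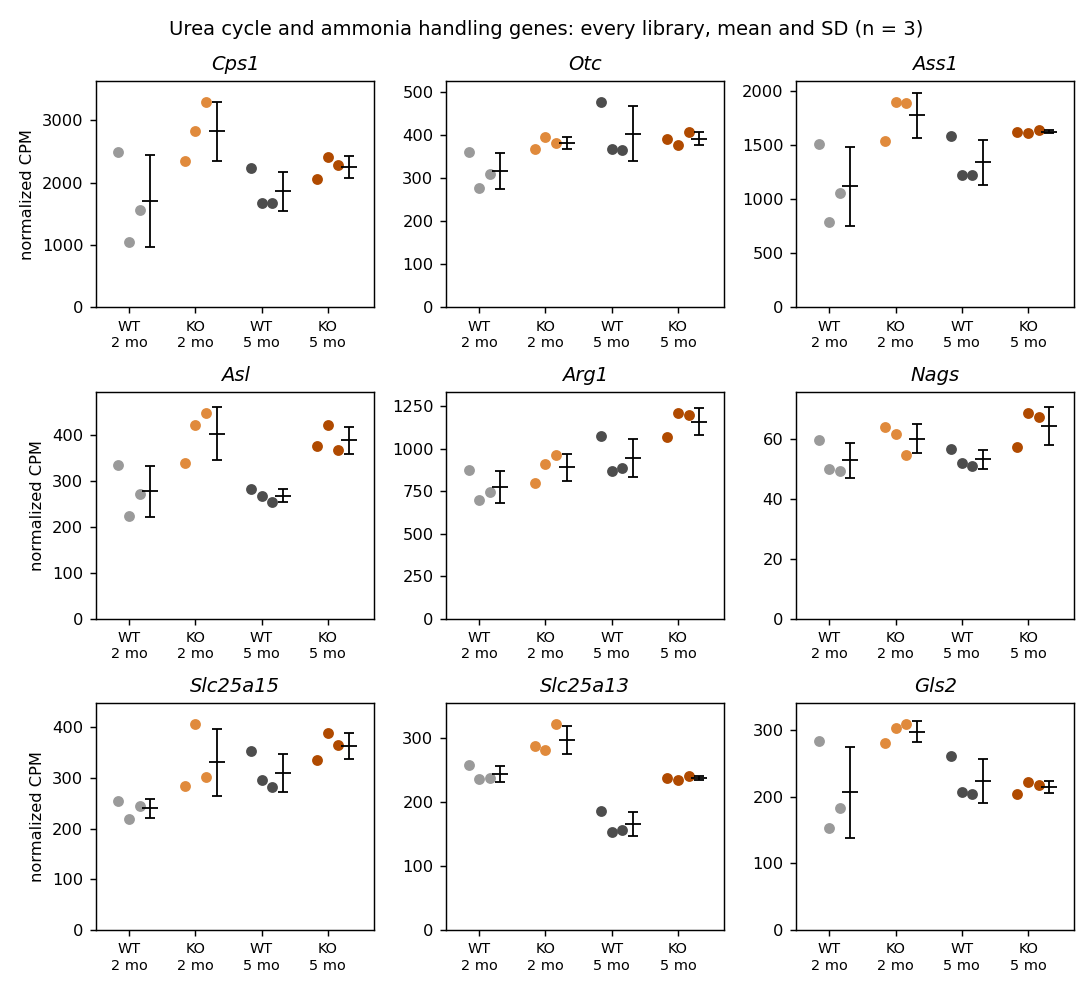
Normalized CPM of each of the 9 genes in every library (points), with the mean and SD of the 3 libraries of a group (dash and bars) and axes from 0. WT replicate 1, the first point of each WT group, is the highest of its group in all 9 panels, and Slc25a13 at 5 months shows WT at 153 to 186 CPM and libraries labelled KO at 235 to 241.

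Entry of ammonia into the cycle depends on Nags and Cps1. Nags makes N-acetylglutamate, the activator without which Cps1 does not work. Nags CPM was 59.7, 49.97 and 49.3 in WT and 64.0, 61.8 and 54.8 in the libraries labelled KO at 2 months, where the groups overlapped (0.18 ± 0.0951, edgeR adjusted p = 0.340). At 5 months it was 56.7, 52.0 and 51.1 in WT and 57.3, 68.9 and 67.6 in those labelled KO. The groups just missed each other there, 57.3 lying against 56.7, and the call was present in 7 of 13 alternative analyses. Reads of Nags and of Gm11586, a gene on the other strand with 443 shared exonic bases and 1 to 11 counts, cannot be told apart if counting ignored strand.

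Cps1, carbamoyl phosphate synthetase, joins ammonia and bicarbonate in the first and rate-limiting step. Its CPM was 2499, 1049 and 1557 in WT and 2348, 2825 and 3299 in the libraries labelled KO at 2 months. The WT libraries spanned 2.38-fold, the widest spread of the 9 genes in any group, and the groups overlapped (edgeR adjusted p = 0.330). At 5 months CPM was 2228, 1674 and 1680 in WT and 2061, 2416 and 2286 in those labelled KO, again overlapping through WT replicate 1. In the libraries labelled KO the means of 2824 ± 476 CPM at 2 months and 2254 ± 180 at 5 months (SD, n = 3) gave a difference that did not pass (-0.33 ± 0.119, edgeR adjusted p = 0.0530).

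Otc, ornithine transcarbamylase, forms citrulline in the mitochondrion. At 2 months its CPM was 361, 277 and 311 in WT and 368, 396 and 381 in the libraries labelled KO. The groups did not overlap, though 361 and 368 were close, and the difference did not pass (0.27 ± 0.101, edgeR adjusted p = 0.181). At 5 months the libraries labelled KO, at 391, 377 and 408, lay within the WT range of 477, 368 and 365. The rise over time in WT was past the threshold in 6 of 13 alternatives, and was absent, among others, without WT replicate 2 or 3 at 2 months and without WT replicate 1 or 2 at 5 months.

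Ass1, argininosuccinate synthetase, adds aspartate and its nitrogen. CPM was 1516, 788 and 1058 in WT and 1538, 1905 and 1894 in the libraries labelled KO at 2 months, without overlap (edgeR adjusted p = 0.194). At 5 months WT libraries were at 1585, 1225 and 1223 and those labelled KO at 1620, 1618 and 1640. The latter were within 1.01-fold of each other, the tightest of all groups, and all above WT. WT replicate 1 came closest to them at both times.

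Asl, argininosuccinate lyase, releases arginine. At 2 months its CPM was 335, 225 and 272 in WT and 339, 422 and 449 in the libraries labelled KO (edgeR adjusted p = 0.114), and at 5 months 282, 268 and 254 in WT and 377, 423 and 367 in those labelled KO. At 5 months a wide gap separated the groups, and the gene was called under all 13 alternatives (log2 fold change 0.48 to 0.59). No change over time was called in either genotype (-0.05 ± 0.131 in WT and -0.05 ± 0.104 in those labelled KO, edgeR adjusted p = 0.772 and 0.697).

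Arg1, arginase, splits arginine into urea and ornithine and closes the cycle. CPM was 878, 699 and 747 in WT and 801, 909 and 962 in the libraries labelled KO at 2 months, overlapping (0.20 ± 0.109, edgeR adjusted p = 0.365). At 5 months it was 1076, 872 and 888 in WT and 1070, 1213 and 1199 in those labelled KO. This gene was called although the groups overlapped, the lowest library labelled KO lying just below WT replicate 1, and the call was present in 6 of 13 alternatives. Its rise over time in the libraries labelled KO was called in all 13. Some macrophages also make Arg1, and macrophage markers summed to 1123 to 1361 CPM in WT and 598 to 786 in those labelled KO at 5 months. Their part in the Arg1 values was not tested.

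The carriers moved in opposite directions over time in WT. Slc25a15 exchanges ornithine for citrulline across the inner membrane. Its CPM was 255, 219 and 245 in WT and 284, 407 and 302 in the libraries labelled KO at 2 months, where the groups did not overlap (0.47 ± 0.134, edgeR adjusted p = 0.0997). At 5 months, with 353, 295 and 282 in WT and 336, 388 and 365 in those labelled KO, they overlapped. Its rise in WT was called in 12 of 13 alternatives, the exception being the fit without WT replicate 2 at 2 months, while in the libraries labelled KO the change was 0.13 ± 0.141 (edgeR adjusted p = 0.489).

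Slc25a13, or citrin, brings aspartate out of the mitochondrion for Ass1. Its CPM was 257, 235 and 237 in WT and 288, 280 and 322 in the libraries labelled KO at 2 months, without overlap (0.29 ± 0.0814, edgeR adjusted p = 0.0853). Libraries at 5 months were at 186, 153 and 156 in WT and 237, 235 and 241 in those labelled KO. Of the 9 genes it alone was called in 3 comparisons, higher in the libraries labelled KO at 5 months and lower over time in both genotypes, each under all 13 alternatives. Its level in those labelled KO at 5 months, 238 ± 3.03 CPM (SD, n = 3), stood beside 243 ± 12.2 in WT at 2 months.

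Gls2, the liver-type glutaminase, frees ammonia from glutamine next to Cps1. At 2 months its CPM was 283, 153 and 183 in WT and 280, 303 and 309 in the libraries labelled KO, overlapping only through WT replicate 1 (edgeR adjusted p = 0.281). At 5 months WT libraries were at 262, 206 and 204 and those labelled KO at 204, 221 and 218. The fall in the libraries labelled KO left no overlap between times and was called in 12 of 13 alternatives, the exception being a fit of all 12 libraries together (edgeR adjusted p = 0.0742, range over alternatives 1.17e-11 to 0.0742). Gls2 shares 97 exonic bases with Spryd4 on the other strand, which had 347 to 621 counts.

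Outside the cycle, Glul, which binds ammonia into glutamine, differed at 5 months. Its CPM was 1506, 1535 and 1429 in WT and 1523, 1520 and 1299 in the libraries labelled KO at 2 months (-0.04 ± 0.0949, edgeR adjusted p = 0.862). At 5 months it was 1313, 1085 and 1132 in WT and 1442, 1953 and 1581 in those labelled KO, without overlap (0.51 ± 0.113, edgeR adjusted p = 0.00927). In WT it fell by 0.34 ± 0.0995 over time (edgeR adjusted p = 0.0163), and in the libraries labelled KO the change was 0.19 ± 0.116 (0.205). The difference between times did not pass (0.54 ± 0.154, edgeR adjusted p = 0.0963).

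Genes that supply glutamine, ammonia or bicarbonate were mostly higher at 5 months. Of 13 tested, 8 were higher and 1 lower in the libraries labelled KO, with a median of 0.35. Counts in this and the following lists stand beside the shares of all genes tested. At 2 months 3.56% were called, and at 5 months 8.90% were called higher and 9.51% lower. Over time 23.8% were higher and 22.7% lower in WT, and 22.7% and 22.2% in those labelled KO. No list was tested against these shares. Car5a, the mitochondrial carbonic anhydrase that makes bicarbonate for Cps1, was higher at 2 months (0.53 ± 0.0827, edgeR adjusted p = 0.0114) and at 5 months (0.83 ± 0.0930, 7.53e-05). Aqp8, a channel that passes water and ammonia (0.49), and the glutamate and glutamine transporters Slc1a2 (0.40) and Slc38a3 (0.35) were also higher at 5 months. At 2 months Car5a was the one gene of the 13 called. Over time 5 of 13 fell in WT and 0 rose, while 6 fell and 1 rose in the libraries labelled KO. Slc38a3 fell by 1.13 in WT and by 1.18 in those labelled KO.

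Aminotransferases and mitochondrial carriers of the list around aspartate and glutamate gave 1 lower of 9 tested at 2 months. At an unadjusted p below 0.05 edgeR had 4 at 2 months, and DESeq2 called 2. At 5 months 2 of 9 were higher and 1 lower. Slc25a10, the dicarboxylate carrier, was the lower gene at 2 months (-0.94 ± 0.0850, edgeR adjusted p = 7.61e-04) and at 5 months (-0.71 ± 0.0737, 3.63e-05). Gpt2 (0.54), a mitochondrial alanine aminotransferase, and Tat (0.43), tyrosine aminotransferase, were higher at 5 months. Tat had a larger difference at 2 months (1.06 ± 0.245), without overlap, that did not pass (edgeR adjusted p = 0.0776). Gpt2 also differed between times (log2 0.78, edgeR adjusted p = 0.00643), having fallen by 0.42 in WT and risen by 0.36 in the libraries labelled KO. Over time 1 of 9 rose and 4 fell in WT, and 1 rose and 3 fell in those labelled KO. Of all genes 23.8% were higher and 22.7% lower over time in WT, and 22.7% and 22.2% in those labelled KO.

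Users of arginine, ornithine and proline moved both ways. At 2 months Prodh2 (0.49), Gamt (0.39), which makes creatine, and Agmat (0.39) were higher, or 3 of 15 tested with 0 lower. At 5 months Prodh (0.79), proline dehydrogenase, and Gamt (0.63) were higher and Gatm (-0.56), which takes arginine for creatine synthesis, was lower, or 3 of 16. Over time 3 rose and 2 fell of 16 in WT, where Prodh2 fell by 0.31, and 2 rose and 4 fell of 15 in the libraries labelled KO, where Prodh2 fell by 0.54.

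Amino acid breakdown gave 0 calls by edgeR among 14 genes tested at 2 months, 4 at an unadjusted p below 0.05 and 2 by DESeq2. All 14 had a higher mean in the libraries labelled KO (median 0.21). At 5 months 3 of 15 were higher and 3 lower. Sds (0.31), serine dehydratase, was higher, while Hal (-0.46) and Amdhd1 (-0.44), both of histidine breakdown, were lower. Over time 4 rose and 1 fell in WT, and 3 rose and 5 fell in the libraries labelled KO, where Hal fell by 1.12 ± 0.0673 (edgeR adjusted p = 1.10e-06).

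Among 10 factors and receptors known to act on these genes, Klf15 was higher at 2 months (0.64 ± 0.140, edgeR adjusted p = 0.0482). At an unadjusted p below 0.05 edgeR had 4 of the 10 at 2 months, and DESeq2 called 2. At 5 months Ppargc1a, a coactivator of fasting metabolism (1.32 ± 0.104, edgeR adjusted p = 4.65e-06), Cebpb (0.34), Klf15 (0.33) and Hnf4a (0.28), the nuclear receptor of hepatocyte identity, were higher and 0 lower. Hnf4a had a like difference at 2 months (0.31 ± 0.0934), without overlap, that did not pass (edgeR adjusted p = 0.105). Its difference between times was -0.04 (edgeR adjusted p = 0.917). Over time 2 rose and 3 fell in WT, Cebpb rising by 0.61 and Gcgr, the glucagon receptor, falling by 0.34, while 0 rose and 2 fell in the libraries labelled KO.

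**Figure D4:**
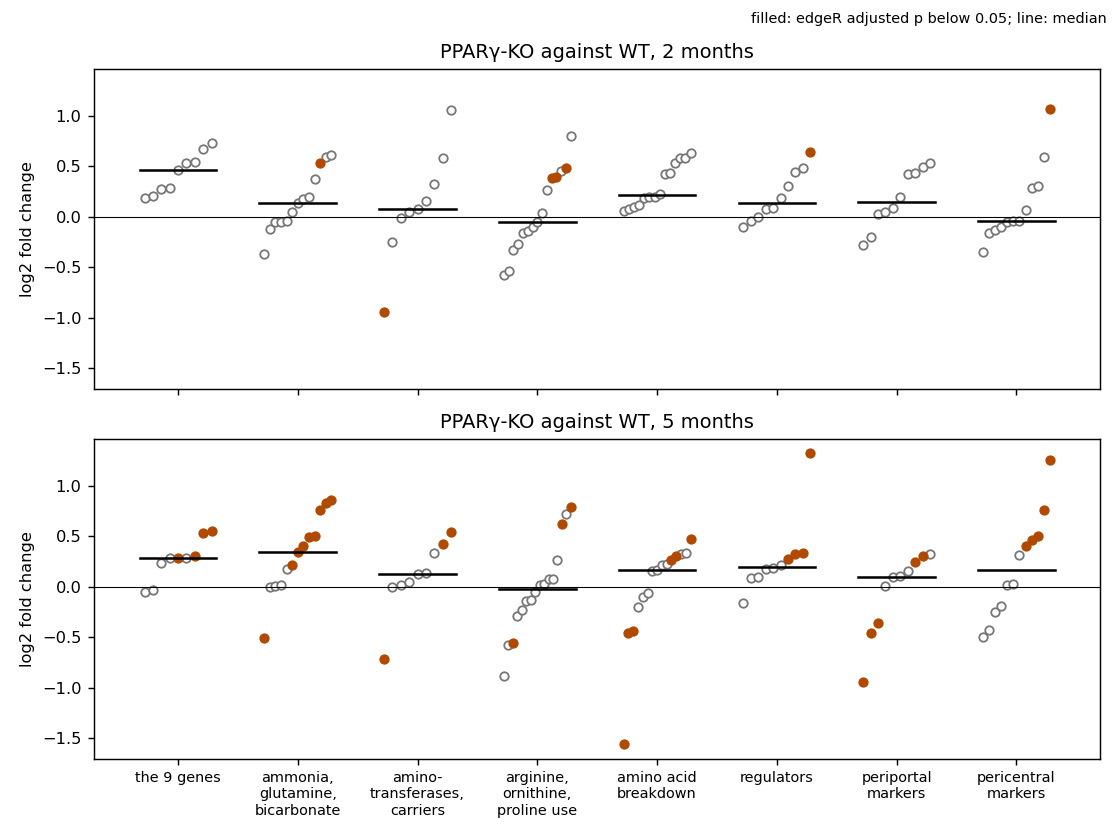
Log2 fold change of libraries labelled PPARγ-KO against WT at 2 months (top) and 5 months (bottom) for the 9 genes and 7 related lists, with each point 1 gene, ordered within its list by value, filled where the edgeR adjusted p was below 0.05, and with a line at the list's median. The median of the 9 genes is 0.47 at 2 months with 0 filled points and 0.29 at 5 months with 4.

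Zonal markers did not move as one. Of 10 periportal markers outside the cycle, edgeR called 0 at 2 months (3 at an unadjusted p below 0.05, DESeq2 1). At 5 months 2 were higher and 3 lower, Ctsc (-0.94), Hal (-0.46) and Hsd17b13 (-0.36) being lower and Sds (0.31) higher. Ctsc also differed between times (-0.98, edgeR adjusted p = 0.0027), having risen by 0.79 in WT. Macrophage markers rose in WT in 10 of 10 cases and were lower at 5 months in 9 of 10 (median -0.91). Their part in the Ctsc values was not tested. Of 12 pericentral markers, Cyp1a2 was higher at 2 months (1.06), and 5 were higher and 0 lower at 5 months, with Cyp1a2 (1.26), Gulo (0.46), Slc1a2 (0.40) and Glul (0.51) among them. By mean, 8 of the 12 lay above WT at 5 months and 4 below. Among the latter, Lgr5 (-0.50, edgeR adjusted p = 0.0573) and Cyp2e1 (-0.19, 0.219) did not overlap WT and were not called. Some genes stand in several lists, such as Glul and Slc1a2 with ammonia supply and Hal and Sds with amino acid breakdown. Over time 4 periportal markers rose and 1 fell in WT, and 3 rose and 3 fell in the libraries labelled KO. Pericentral markers fell in 5 cases in WT and 3 in those labelled KO, and 0 rose.

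Marker lists of cell types differed between the groups in part. Hepatocyte markers summed to 58850 to 68990 CPM in WT and 75770 to 87600 in the libraries labelled KO at 2 months, and to 63470 to 71400 and 80130 to 93040 at 5 months. By gene, edgeR called 3 of 9 higher at 2 months. At 5 months it called 2 of 9 higher and 1 lower, and their median was -0.01, with 4 above 0 and 5 below. Albumin (Alb) makes up much of that sum, with a mean of 36980 CPM in WT and 57100 in the libraries labelled KO at 5 months (0.64 ± 0.107, edgeR adjusted p = 0.00121). Macrophage markers were lower in 9 of 10 cases at 5 months. At 2 months edgeR called 0 of 10 (3 at an unadjusted p below 0.05, DESeq2 1), and they summed to 428 to 532 CPM in WT and 451 to 548 in those labelled KO at 2 months, which overlapped. Stellate markers, lower in 1 of 8 at 2 months and 4 of 8 at 5 months, summed to 571 to 723 and 430 to 446 CPM at 2 months and to 627 to 776 and 490 to 557 at 5 months. At 5 months 3 of 8 endothelial, 2 of 3 neutrophil, 2 of 3 B cell and 1 of 6 T and NK cell markers tested were lower, and 1 of 5 cholangiocyte and 1 of 4 erythroid markers higher. None of the hepatocyte, macrophage or stellate markers was at 0 throughout a group. The 9 cycle genes summed to 3694 to 6445 CPM in WT and 6310 to 7973 in those labelled KO at 2 months, and to 5102 to 6506 and 6352 to 6960 at 5 months. The part of cell make-up in these differences was not tested.

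As a description over the 12 libraries, which share groups and times, the genes most like each member in log2 CPM were listed by Pearson correlation. Cps1 and Ass1 were each other's nearest gene (r = 0.97), Cps1 being followed by Ahcy (0.96) and Slc27a5 (0.95) and Ass1 by Hpd (0.96) and Il1rap (0.95). No other member had a member among its nearest 3. Slc25a13 lay nearest Fgf1 (0.99), Sec16b (0.97) and Pstpip2 (0.97). Rgn was nearest Otc (0.95), Gpld1 nearest Asl (0.95), Aldh2 nearest Arg1 (0.96), Lrp5 nearest Nags (0.95), Acmsd nearest Slc25a15 (0.94) and Ebp nearest Gls2 (0.94).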

How the data were processed

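Total RNA of mouse liver was sequenced by a company on an Illumina NovaSeq, as 12 libraries. The authors deposited raw counts of reads per gene for each library, not normalized, with coordinates, length and type of 54532 genes. Alignment was to mm10. The paper's methods name STAR and the submitters' processing notes name HISAT2, and the counting program, annotation version and use of strand are not given in the sources used here. Of the 54409 genes found in GENCODE M21, 98.3% had the same start and end there. In every file 27 genes carried a date in place of a name.

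Each comparison of 2 groups was fitted on its own 6 libraries, and the difference between times on all 12 with 4 group means, by edgeR's robust quasi-likelihood test after filterByExpr and TMM scaling (factors 0.949 to 1.09), two-sided, with Benjamini-Hochberg adjustment over all genes tested and a threshold of 0.05. A gene that passed is called higher or lower. Printed CPM use TMM factors of all 12 libraries together. Total counts of 16367775 to 27452284 put the least abundant of the 9 genes, Nags, near 50 CPM or above. Software was edgeR 4.0.16 with limma 3.58.1 and DESeq2 1.42.0, run in R 4.3.3.

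Alternatives were DESeq2, its size factors in edgeR, library size alone, other filters on low counts, all libraries in 1 fit, the replicate number as a block, and each library left out. To look for pairing, each gene's group mean of log2 CPM was subtracted, and the deviations were correlated between libraries over the 5000 most abundant genes. At 2 months these correlations were 0.221, 0.322 and 0.141 for libraries of the same number. For libraries of unlike number they ran from -0.272 to 0.112. Deviations within a group sum to 0, so higher values for some pairs force lower values for others. The labels state no pairing, so whether the numbers pair libraries is not known. The main fits hold no block, and the block called 0 of the 9 genes at 2 months, as without it.

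Lgr5 and Cyp2e1 are named as pericentral markers below WT. Otherwise named are the 9 genes, Pparg, Glul, up to 4 called genes of lowest adjusted p from each related list, and the 3 genes nearest each member. Some genes under this rule are not reported here. The rule for the 9 genes uses names alone, but the members and lists were chosen with earlier results of these data known. Of 10 hepatocyte markers 9 were matched by name.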

Additional observations from a re-analysis of the deposited data

How the results depend on the processing

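At 2 months the count of called genes among the 9 was 0, and became 4 with DESeq2, 4 without a filter on low counts, 3 with all 12 libraries in 1 fit and 0 to 6 on leaving out a library. At 5 months the count was 4, and became 2 with library size alone, 7 without the filter, 2 with all 12 libraries in 1 fit and 2 to 7 on leaving out a library. Leaving out a library gave 1 to 6 called over time in WT (6 without replicate 1 and 1 without replicate 2 at 2 months), 3 to 5 in the libraries labelled KO (5 without replicate 1 at 2 months), and 0 to 1 for the difference between times. The median log2 fold change of the 9 then ran from -0.035 to 0.416 over time in WT, from -0.17 to 0.03 in the libraries labelled KO and from -0.335 to -0.059 for the difference between times. Why these counts moved was not tested. The share of all genes called under each alternative is not given here.

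Signs turned only for values that were not called. With library size alone Nags over time in WT became -0.072, Otc over time in the libraries labelled KO -0.022, and the difference between times for Asl 0.013, and with at least 10 counts in every library Nags in WT became -0.013. Library size alone moved the median log2 fold change of all genes by -0.077 at 2 months, -0.067 at 5 months, -0.08 over time in WT and -0.058 in those labelled KO. On leaving out a library the log2 fold change at 5 months ran from -0.10 to 0.11 for Otc and from -0.114 to 0.074 for Gls2. Over time in WT it ran from -0.13 to 0.52 for Cps1, from -0.18 to 0.11 for Asl, from -0.047 to 0.104 for Nags and from -0.063 to 0.416 for Gls2. In the libraries labelled KO it ran from -0.17 to 0.03 for Asl. For the difference between times it ran from -0.16 to 0.13 for Asl and from -0.001 to 0.199 for Arg1.

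With the replicate number as a block, edgeR called 0 of the 9 genes at 2 months, 3 at 5 months, 4 over time in WT, 4 over time in the libraries labelled KO and 0 for the difference between times. Outside the 2-month comparison correlations of deviations from the group mean ran from -0.187 to 0.234 for libraries of the same number. The block there lost Arg1 at 5 months and added Arg1 over time in WT and Cps1 over time in those labelled KO.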
